A study of Homo sapiens with 9 samples.

Results

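The thrombospondin genes THBS1, THBS2, THBS3 and THBS4 were described across RNA libraries of HCT116, an established human colorectal carcinoma line. They were chosen by gene name, as 4 of the 35817 genes of the count table, and THBS1 was the reason for the choice because it lay on opposite sides of the control with the 2 siRNAs. The counts of THBS1 in these libraries are therefore a description and carry no test, whereas THBS2, THBS3 and THBS4 entered by their family name and were tested. All 4 genes passed the filter on low counts, which left 21130 genes tested.

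The cells were transfected with LINC00857-siRNA1 (siRNA1), with LINC00857-siRNA2 (siRNA2) or with a negative control siRNA (NC), using Lipofectamine RNAiMax in every group. The 2 siRNAs target different stretches of the same long noncoding RNA, and knockdown was transient. Each group had 3 libraries of total RNA, 9 in all, from 1 cell line grown in McCoy's 5A medium with bovine serum. No source used here states if separate cultures stood behind the libraries of 1 group, so the p-values speak for the spread among these 9 libraries, and that spread may be technical. In bulk RNA, fewer cells with a transcript and less of it per cell cannot be told apart.

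Thrombospondins are secreted, calcium-binding glycoproteins of the extracellular matrix that act on cells more than they build the matrix. THBS1 and THBS2 assemble as trimers and carry type 1 repeats, which bind the receptor CD36 and restrain angiogenesis. THBS1 can also activate latent TGF-beta. THBS3, THBS4 and COMP assemble as pentamers, lack the type 1 repeats and are best known from cartilage, tendon and muscle. The carboxy-terminal part of THBS1 binds CD47, a receptor found on most cells.

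The depth was similar in all libraries, at 51411860 to 57815092 counts in total. LINC00857, the targeted RNA, averaged 212 ± 14.9 normalized counts with siRNA1, 200.2 ± 37.4 with siRNA2 and 482 ± 51.6 with NC (SD, n = 3 libraries each), so both knockdowns left less than the control. Normalized counts are counts scaled to a common library size by TMM (trimmed mean of M values). Of 7 epithelial markers, 6 exceeded a mean of 50 normalized counts, and VIL1 did not. Defining markers of other cell types were low: 6 of 6 endothelial, 4 of 4 blood cell and 7 of 8 fibroblast markers in the table stayed under that mean, with COL1A1 as the exception. Of 3 platelet and megakaryocyte markers in the table, ITGA2B and GP1BA exceeded it, and the 3 together ran from 8.61 to 9.56 CPM (counts scaled to a common library total) with siRNA1, 8.68 to 10.9 with siRNA2 and 8.87 to 10.2 with NC.

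THBS1 was the most abundant member in the control cells. Of the 3 members with counts in every library, it differed most between the siRNAs. Its normalized counts were 6792, 6684 and 6431 with siRNA1, 849.9, 758.5 and 818.6 with siRNA2, and 2145, 2129.8 and 2240.0 with NC. Every siRNA1 library thus lay far above every NC library and every siRNA2 library lay far below, with no overlap between any pair of groups. The share of all genes whose groups lie apart in this way was not counted. The coefficient of variation within a group was 2.79% with siRNA1, 5.74% with siRNA2 and 2.75% with NC. With siRNA1 the fitted level was 3.06-fold that of NC, a log2 fold change of 1.61 (SE 0.05). With siRNA2 it was 2.68-fold lower than with NC, a log2 fold change of -1.42 (SE 0.05). Between the siRNAs the log2 difference was 3.04 (SE 0.05), siRNA1 over siRNA2, or 8.2-fold.

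**Figure D1:**
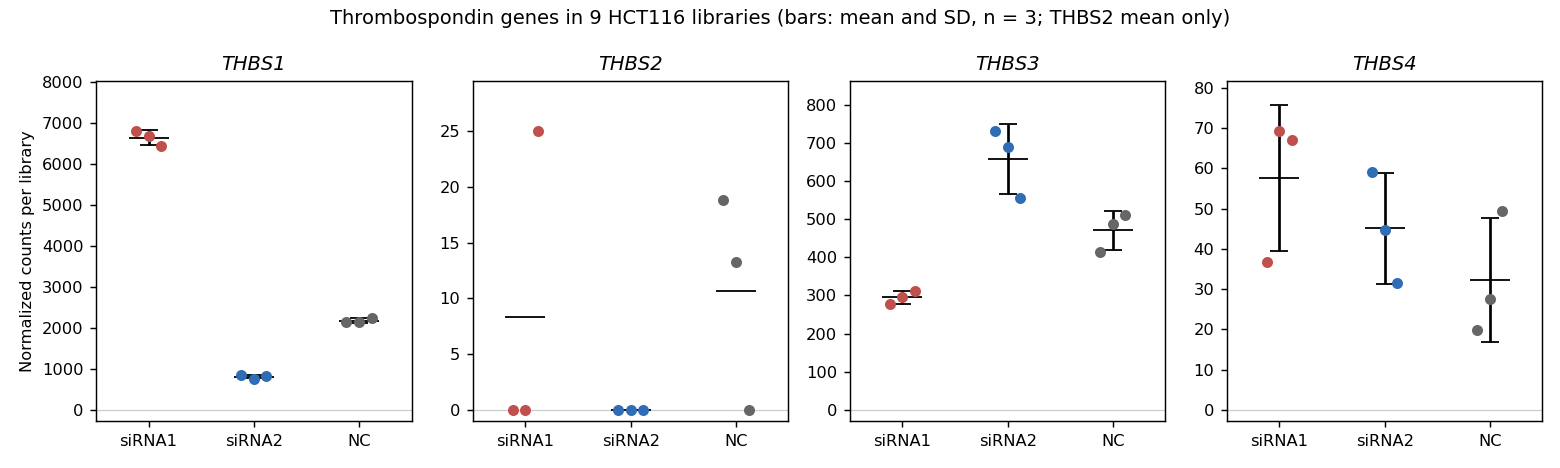
Normalized counts of THBS1, THBS2, THBS3 and THBS4 (y axis, each panel with its own scale from 0) in the libraries of siRNA1, siRNA2 and NC. Points are libraries and bars are the mean and SD (n = 3), with the mean alone for THBS2. THBS1 lies at 6431 to 6792 with siRNA1, 758.5 to 849.9 with siRNA2 and 2129.8 to 2240.0 with NC, and THBS3 is ordered the other way.

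Such opposite movement was not common in the table. Of the 21130 genes tested, 292 (1.38%) were higher with siRNA1 and lower with siRNA2, each against NC at an adjusted p under 0.05 in edgeR's quasi-likelihood test, and THBS1 had been chosen for that pattern. Another 345 genes (1.63%) were lower with siRNA1 and higher with siRNA2. Among the 15091 genes with a mean of at least 50 normalized counts, 43 had a higher log2 fold change than THBS1 with siRNA1. With siRNA2, 113 had a lower one. In the difference between the siRNAs, 10 of these genes had a higher value than THBS1.

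In GRCh38 (GENCODE v29), THBS1 occupies chromosome 15, plus strand, bases 39581079 to 39599466. Its longest coding transcript has 7775 bases in 22 exons, of which 4097 are 3′ UTR. Positions here come from that annotation and genes were joined to it by Ensembl ID, while hg19 is the build that the submitters' notes give. The gene shares 448 exon bases with FSIP1 and 411 with the antisense transcript AC037198.2, both on the other strand, and it is not stated whether counting used the strand. FSIP1 had 61, 14 and 42 counts with siRNA1, 45, 15 and 17 with siRNA2, and 62, 48 and 29 with NC, and its groups overlapped. AC037198.1, annotated on the same strand inside an intron of THBS1, had 3, 5 and 16 counts with siRNA1, 0 in each siRNA2 library, and 3, 0 and 0 with NC. AC037198.2 had 7, 13 and 6 counts with siRNA1, 3, 0 and 0 with siRNA2, and 8, 0 and 0 with NC. Both transcripts were too low to be tested.

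The 250 bases before the start of THBS1 are shown because the gene differs so widely between the groups, with short words that name known promoter elements in capitals. They span chr15:39580829-39581078 on the plus strand in RefSeq's GRCh38.p14 promoter table, and 69.6% of the bases are G or C.
THBS1 promoter: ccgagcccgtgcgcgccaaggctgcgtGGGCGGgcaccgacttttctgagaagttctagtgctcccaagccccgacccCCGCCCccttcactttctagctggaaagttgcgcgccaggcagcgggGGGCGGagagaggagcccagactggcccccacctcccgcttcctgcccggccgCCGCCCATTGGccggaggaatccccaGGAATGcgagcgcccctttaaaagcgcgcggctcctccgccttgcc
On both strands together, the window held 4 GC boxes (GGGCGG), 1 CCAAT box (CCAAT), which abuts a GC box, and 1 TEAD word (GGAATG), the core of the element bound by TEAD proteins with YAP1. Of 35116 promoter windows of the same table, 42.6% held GGGCGG, 32.0% CCAAT and 11.9% GGAATG. The window held no TATA box (TATAAA), which 10.7% of the windows held. It also held no E-box (CACGTG), found in 6.34%, and no AP-1 word (TGACTCA), found in 4.2%. A match is a description of the letters and not a bound site.

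The 3′ UTR of THBS1 was searched for words that pair with bases 2 to 8 of small RNAs, the seed. The words for the guide strands, taken from the antisense strands in the study's methods, were GTGAACA for siRNA1 and GTGAATA for siRNA2, and they were not found in the 3′ UTR of any of the 4 members. They were present in the 3′ UTRs of 11.8% and 12.3% of 14304 tested genes, and each in 23.9% of the 1860 genes whose 3′ UTR had 3000 to 5000 bases, the range that holds THBS1. Members of the miR-17-92 cluster are known to repress THBS1 in colon cancer cells, so their words were searched as well, a choice made after the values had been seen. THBS1 held 1 match for miR-18a-5p and 1 for the seed that miR-19a-3p and miR-19b-3p share. The matures are given with the seed in capitals and the sites with the matching word in capitals.
hsa-miR-18a-5p: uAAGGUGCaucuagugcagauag
hsa-miR-19a-3p: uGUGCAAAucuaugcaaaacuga
hsa-miR-19b-3p: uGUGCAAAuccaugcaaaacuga
THBS1 site for miR-18a-5p: atgctggtattGCACCTTctggaactatg
THBS1 site for miR-19a-3p and miR-19b-3p: tttatataatgTTTGCACactgaattgaa
The word GCACCTT begins 49 bases into the 3′ UTR, at chr15:39595418-39595424, and TTTGCAC begins at base 1863, at chr15:39597232-39597238. They occurred in the 3′ UTRs of 9.92% and 14.9% of the tested genes, whatever the length of the 3′ UTR. Their share among genes with a 3′ UTR of 3000 to 5000 bases was not counted. For the siRNA words that share was higher than over all lengths. The words for miR-17-5p, miR-20a-5p, miR-92a-3p and miR-92b-3p were searched too and not found in the 3′ UTR of THBS1. The host transcript MIR17HG averaged 418 ± 70.2 normalized counts with siRNA1, 306 ± 22.9 with siRNA2 and 373 ± 43.1 with NC (SD, n = 3 each). Against NC its log2 value was 0.16 with siRNA1 (SE 0.16, adjusted p = 0.566) and -0.29 with siRNA2 (SE 0.16, adjusted p = 0.222, both in edgeR's test). Its difference between the siRNAs, 0.45 on the log2 scale (SE 0.16), had an adjusted p of 0.0513 in the same test. None of these passed. Mature miRNAs were not measured in these libraries.

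THBS3 moved in the opposite direction to THBS1 with each siRNA, and both calls passed the test. Its normalized counts were 278, 296 and 311 with siRNA1, 731, 689 and 555 with siRNA2, and 414, 487 and 512 with NC. No group overlapped with another, a trait whose share over all genes was not counted. The lowest siRNA2 library lay closest to the NC libraries. The means were 295 ± 16.5 with siRNA1, 658 ± 91.7 with siRNA2 and 471 ± 50.9 with NC (SD, n = 3 each). THBS3 fell by 0.68 on the log2 scale with siRNA1 (SE 0.14, adjusted p = 0.00392 in edgeR's test over all genes). It rose with siRNA2, and there the log2 value was 0.48 (SE 0.14, adjusted p = 0.0195 in the same test). The direct difference between the siRNAs was -1.16 (SE 0.14, adjusted p = 3.59e-05, edgeR), siRNA1 minus siRNA2, which is 2.23-fold lower with siRNA1. The rise with siRNA2 lost its call when NC replicate 1 (adjusted p = 0.0929), siRNA2 replicate 1 (0.0925) or siRNA2 replicate 2 (0.0707) was left out of the edgeR fit.

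As background to these calls, 2274 genes (10.8%) were higher and 2217 (10.5%) lower with siRNA1 against NC. With siRNA2 against NC, 2919 (13.8%) were higher and 2934 (13.9%) lower. Between the siRNAs, 3201 (15.1%) were higher and 3015 (14.3%) lower with siRNA1. Of THBS2, THBS3 and THBS4, only THBS3 passed, and it did so in all 3 comparisons. Over the 9 libraries the Pearson r of THBS3 with THBS1 in log2 CPM was -0.961, and 203 of 15090 genes had a lower r. All these r values are descriptions over libraries of 3 groups.

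THBS3 lies on the minus strand of chromosome 1 from 155195588 to 155209051 (GRCh38), and its neighbours on the other strand come close. Its outermost start is 352 bases from that of MTX1, a mitochondrial import protein, and the genes share 146 exon bases. THBS3 also shares 1027 exon bases with the antisense transcript AC234582.1, and the miRNA gene MIR92B lies 316 bases beyond its 3′ end. MTX1 averaged 1820.0 ± 142.1 normalized counts with siRNA1, 1852 ± 116 with siRNA2 and 2132 ± 78.7 with NC (SD, n = 3 each), and its log2 difference between the siRNAs was -0.03 (SE 0.07, adjusted p = 0.852 in edgeR's test). MTX1 fell by 0.23 on the log2 scale with siRNA1 (SE 0.07, adjusted p = 0.0436), a call that was lost in 8 of the 17 alternatives (among them leaving out any NC library or siRNA1 replicate 1 or 2, adjusted p from 0.0609 to 0.149), and its value with siRNA2 was -0.20 (SE 0.07, adjusted p = 0.0593). AC234582.1 had 66, 33 and 36 counts with siRNA1, 53, 73 and 63 with siRNA2, and 51, 75 and 76 with NC. Its log2 value was -0.63 with siRNA1 (SE 0.36), -0.04 with siRNA2 (SE 0.35) and -0.58 between the siRNAs (SE 0.36), and it passed no test.

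The stretch before the inner start that RefSeq gives for THBS3 is shown for comparison with THBS1. It spans 166 bases at chr1:155207982-155208147 on the minus strand (GRCh38.p14), and the 84 bases next to the start were left out because some annotated exons reach into them.
THBS3 promoter: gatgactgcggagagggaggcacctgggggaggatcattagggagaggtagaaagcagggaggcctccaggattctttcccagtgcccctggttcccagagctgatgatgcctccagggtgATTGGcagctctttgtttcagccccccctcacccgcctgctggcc
In capitals is the CCAAT box on the opposite strand, and 61.4% of the bases are G or C. The full window of 250 bases held 2 CCAAT boxes and 1 GC box, and neither GGAATG nor TATAAA. The window before the outer start that RefSeq gives for THBS3 held 1 GC box and no CCAAT box, GGAATG or TATAAA. That of THBS2 held 2 matches of GGAATG and 1 TATA box. Whether any of these words bears on the levels was not tested.

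THBS4 was low in every group and passed no test. Its counts before normalization were 39, 71 and 67 with siRNA1, 60, 41 and 31 with siRNA2, and 20, 27 and 50 with NC. The ranges of the groups overlapped in each pair. The means were 57.7 ± 18.1 normalized counts with siRNA1, 45.2 ± 13.8 with siRNA2 and 32.2 ± 15.4 with NC (SD, n = 3 each). Relative to NC, the log2 value was 0.84 with siRNA1 (SE 0.44, adjusted p = 0.23 in edgeR's test) and 0.48 with siRNA2 (SE 0.45, adjusted p = 0.497). The CV within a group was 31.4% with siRNA1, 30.6% with siRNA2 and 47.6% with NC.

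THBS4 occupies chromosome 5, plus strand, bases 79991311 to 80083287 (GRCh38). Its outermost start is 46 bases from that of MTX3, a relative of MTX1 that is transcribed the other way. RefSeq also gives an inner start for THBS4, just after base 80036022. MTX3 averaged 4073 ± 356 normalized counts with siRNA1, 3454 ± 61.7 with siRNA2 and 5136 ± 81.2 with NC (SD, n = 3 each). It fell by 0.33 on the log2 scale with siRNA1 (SE 0.06, adjusted p = 0.00077) and fell by 0.57 with siRNA2 (SE 0.06, adjusted p = 6.29e-06, both in edgeR's test), whereas the THBS4 values were positive. SERINC5, the nearest gene beyond the 3′ end, 28364 bases away, also fell with both, by 0.24 with siRNA1 (SE 0.05) and by 0.65 with siRNA2 (SE 0.06) on the log2 scale.

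**Figure D2:**
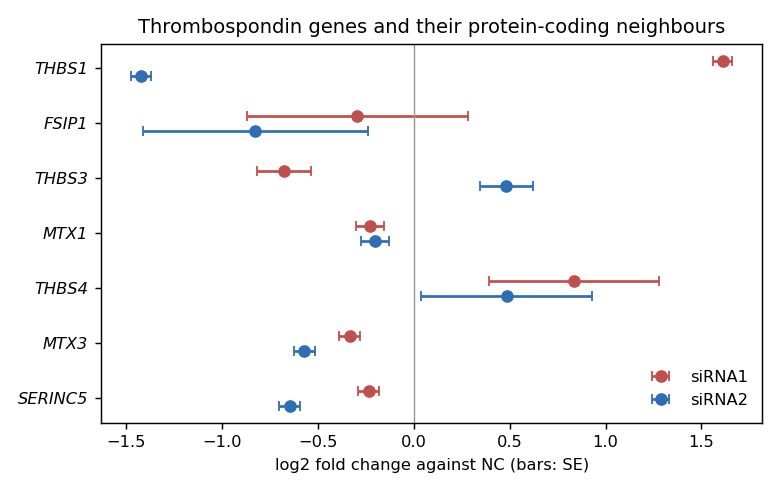
Log2 fold change against NC (x axis, bars are SE) with siRNA1 and siRNA2 for THBS1, THBS3 and THBS4 and the protein-coding genes that overlap them or lie beside them. THBS1 and THBS3 have their 2 points on opposite sides of 0, and FSIP1, MTX1, MTX3 and SERINC5 have both points below 0.

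THBS2 was at the limit of detection. It had 0, 0 and 25 counts with siRNA1, 0 in each of the 3 siRNA2 libraries, and 19, 13 and 0 with NC. A gene with a few counts often has a library at 0 in this table: of 5036 genes that averaged 5 to 20 counts in NC, 32.9% had at least 1 NC library at 0. Against a floor of 3 counts over the siRNA2 group, THBS2 was at least 10.4-fold lower with siRNA2 than with NC (adjusted p = 0.119 in edgeR's test) and siRNA1 was at least 7.87-fold higher than siRNA2 (adjusted p = 0.139). Both bounds pool the libraries of a group and do not cover the spread between them, and NC replicate 3 itself had 0 counts. The second bound rests on siRNA1 replicate 3, without which both siRNA groups were at 0. For siRNA1 against NC the adjusted p was 0.928, and 1 library carried all 25 counts. None of these comparisons passed the test. The gene lies on the minus strand of chromosome 6 from 169215780 to 169254044 (GRCh38). COMP, the other gene of the family, had 6 counts in 1 siRNA1 library and 0 in the rest of the 9, and was not tested.

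Levels of the members were compared with one another per length, as CPM per kilobase of the longest coding transcript. THBS1 stood at 15.7 ± 0.396 with siRNA1, 1.85 ± 0.102 with siRNA2 and 5.06 ± 0.141 with NC on this scale (SD, n = 3 each). THBS3 stood at 1.7 ± 0.101 with siRNA1, 3.65 ± 0.515 with siRNA2 and 2.67 ± 0.289 with NC. Per length, the order of THBS1 and THBS3 was thus turned round with siRNA2. In counts not divided by length, THBS1 stayed above THBS3 in each siRNA2 library (862, 695 and 804 against 741, 631 and 545). Which transcripts of each gene were present was not measured. In single libraries the ratio of THBS1 to THBS3 per length was 10.0, 9.31 and 8.51 with siRNA1, 0.479, 0.453 and 0.607 with siRNA2, and 2.13, 1.8 and 1.8 with NC. THBS4 stood at 0.33 ± 0.105 with siRNA1, 0.249 ± 0.0761 with siRNA2 and 0.181 ± 0.0864 with NC, below THBS3 in each group, and THBS2 stood at 0.0265 with siRNA1, 0 with siRNA2 and 0.0334 with NC, lowest in each. Of the summed level of the family, THBS1 made up 88.4% with siRNA1, 32.2% with siRNA2 and 63.7% with NC, and THBS3 made up 9.57% with siRNA1, 63.5% with siRNA2 and 33.6% with NC. In NC, 50.7% of 16863 coding genes lay below THBS1, 41.2% below THBS3, 21.9% below THBS4 and 13.3% below THBS2.

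**Figure D3:**
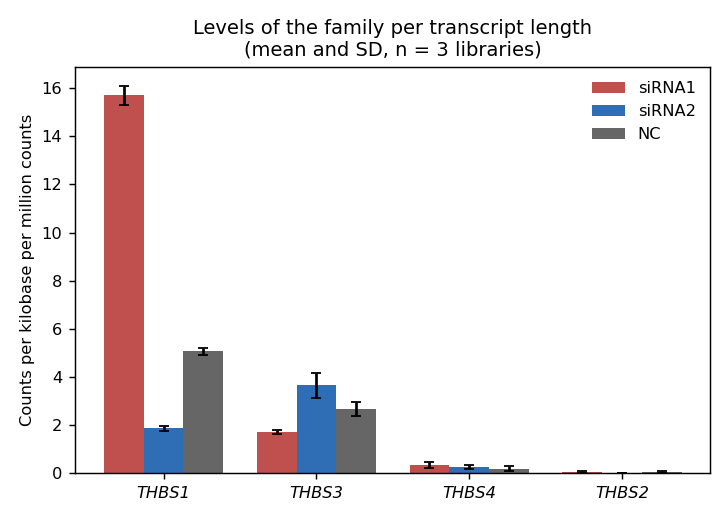
CPM per kilobase of transcript (y axis, from 0) for the 4 members with siRNA1, siRNA2 and NC. Bars are means and whiskers the SD (n = 3 libraries). THBS1 exceeds THBS3 with siRNA1 (15.7 against 1.7) and NC (5.06 against 2.67), and is below it with siRNA2 (1.85 against 3.65).

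The genes with the pattern most like THBS1 were sought among those with a mean of at least 50 normalized counts. By Pearson r over the 9 libraries the first 8 were ADGRG6, WNT7B, HSPD1, ESRP1, STAG2, DCLK1, GRHL2 and INAVA, with r between 0.991 and 0.996. Their changes were mostly smaller than those of THBS1, such as 0.51 with siRNA1 and -0.37 with siRNA2 on the log2 scale for the adhesion receptor ADGRG6. ESRP1, an epithelial splicing regulator, and GRHL2, an epithelial transcription factor, had 0.37 and 0.64 with siRNA1 and -0.24 and -0.73 with siRNA2. The lowest r belonged to PRNP (-0.999), DUSP6 (-0.996), SEMA4B (-0.995) and PHLDA1 (-0.995), and DUSP6 encodes an ERK phosphatase. In the size of both fold changes the nearest genes were MUC13, PI15, PTPRR, TNRC6C-AS1 and DCLK1. MUC13, a cell-surface mucin of the gut, had log2 fold changes of 1.49 with siRNA1 and -1.39 with siRNA2, and DCLK1, a kinase known as a tuft cell marker, had 1.43 and -1.73. DCLK1 was the 1 gene in both selections. All these genes were chosen for likeness to THBS1, so their values carry no test.

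**Figure D4:**
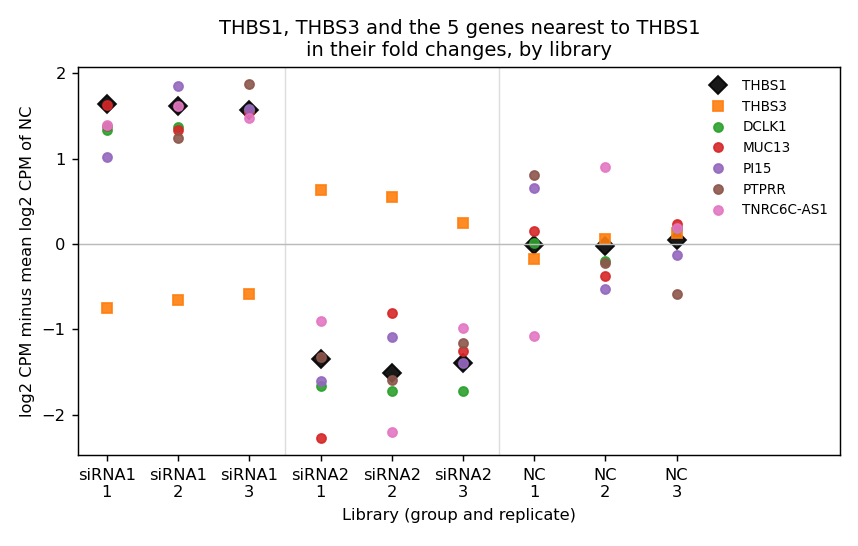
Log2 CPM minus the mean of the NC libraries (y axis) in each library of siRNA1, siRNA2 and NC (x axis) for THBS1 (diamonds), THBS3 (squares) and the 5 genes whose fold changes lay nearest to THBS1. THBS1 lies at 1.57 to 1.64 with siRNA1 and at -1.51 to -1.35 with siRNA2, and THBS3 lies on the other side of 0 in the same libraries.

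Receptors of thrombospondins were mixed in direction. Of 19 listed, 16 were tested. With siRNA1, 4 rose and 7 fell, where 10.8% of all genes rose and 10.5% fell. The median log2 fold change of the list was 0.07, against 0.01 for all genes. Without NC replicate 1, 2 rose. With siRNA2, 4 rose and 5 fell, with a median of -0.20, against 0.0045 for all genes, of which 13.8% rose and 13.9% fell. CD47 fell with both siRNAs, by 0.31 on the log2 scale in each case (SE 0.06, adjusted p = 0.00175 with siRNA1 and 0.00139 with siRNA2, edgeR). CD36, the type 1 repeat receptor, averaged only 15.1 normalized counts with siRNA1, 6.53 with siRNA2 and 13.6 with NC and passed no test. SDC4, a heparan sulfate proteoglycan, rose with both, to 11965 ± 384 with siRNA1 and 9054 ± 418 with siRNA2, against 6703 ± 173 normalized counts with NC. ITGB1, the integrin chain shared by several thrombospondin receptors, averaged 38245 ± 1112 with siRNA1, 63888 ± 1258 with siRNA2 and 37936 ± 373 with NC, and rose with siRNA2 (log2 fold change 0.75, SE 0.03, adjusted p = 1.53e-09 in edgeR's test). ITGA6 and ITGA2 fell with both siRNAs, ITGA6 by 0.58 with siRNA1 and by 0.62 with siRNA2 and ITGA2 by 0.48 with siRNA1 and by 0.30 with siRNA2 on the log2 scale.

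Among the receptors, ITGAV had the direction of THBS1 and LRP8 that of THBS3. ITGAV, a chain of the RGD-binding integrins, rose with siRNA1 (log2 fold change 0.18, SE 0.04, adjusted p = 0.00844 in edgeR's test) and fell by 0.49 with siRNA2 (SE 0.04, adjusted p = 1.96e-06). LRP8, a lipoprotein receptor that binds THBS1, fell by 0.24 with siRNA1 (SE 0.07, adjusted p = 0.0266) and rose with siRNA2 (log2 fold change 0.41, SE 0.07, adjusted p = 0.000598). The siRNA1 call of ITGAV was lost in the edgeR fit without NC replicate 1 (adjusted p = 0.062). That of LRP8 was lost without NC replicate 1 (0.0703), 2 (0.0525) or 3 (0.0529).

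Of 17 matrix partners and proteases listed, 10 were tested. With siRNA1, 5 rose and 1 fell, with a median of 0.40 against 0.01 for all genes, of which 10.8% rose and 10.5% fell. HSPG2, whose call was lost in most alternatives as given further on, was among the 5. With siRNA2, 3 rose and 2 fell, with a median of -0.04, where 13.8% of all genes rose and 13.9% fell. In the list, 1 fell when NC replicate 2 or 3 or siRNA2 replicate 1 or 2 was left out or no filter was used. COL2A1, which had 0 counts in NC, 26 over the siRNA1 libraries and 34 over the siRNA2 libraries, was at least 11.7-fold higher with siRNA2 against a floor of 3 counts, and setting it there left both medians as they were. Its call with siRNA2 (adjusted p = 0.0385 in edgeR's test) was lost in 11 of the 14 alternatives that gave an adjusted p, among them leaving out any library but siRNA1 replicate 2 (0.0604 to 0.119). COL1A1, the main chain of type I collagen, averaged 3370.1 ± 180.3 normalized counts with siRNA1, 1503 ± 50.5 with siRNA2 and 2048 ± 218 with NC. It rose with siRNA1 (log2 fold change 0.72, SE 0.08, adjusted p = 2.2e-05) and fell by 0.45 with siRNA2 (SE 0.08, adjusted p = 0.000687, both in edgeR's test), as THBS1 did in direction. COL1A1 also stood in the fibroblast marker list, whose summed level was 58.7 to 65.6 CPM with siRNA1, 26.8 to 29.8 with siRNA2 and 34.1 to 42.0 with NC. The 7 other fibroblast markers in the table together had only 0.726 to 1.12 CPM with siRNA1, 0.642 to 2.13 with siRNA2 and 0.27 to 0.502 with NC. FN1, fibronectin, rose with siRNA1 (log2 fold change 0.36, SE 0.07, adjusted p = 0.00248), and had -0.15 with siRNA2 (SE 0.07, adjusted p = 0.141). VCAN, a large proteoglycan, rose with both, to 46326 ± 584 with siRNA1 and 61666 ± 409 with siRNA2, against 34156 ± 1189 with NC. ADAMTS7, a protease that cleaves COMP, rose with both as well, with log2 fold changes of 0.48 with siRNA1 and 0.70 with siRNA2.

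TGF-beta genes, a pathway that THBS1 protein can switch on, were all but 1 of 21 in the test. HCT116 is known for a defective type II TGF-beta receptor, so the list describes transcripts and not signalling. With siRNA1, 6 rose and 5 fell, with a median of 0.04, and with siRNA2, 2 rose and 8 fell, with a median of -0.12. Without NC replicate 2, 4 rose with siRNA2. Of all genes tested, 10.8% rose and 10.5% fell with siRNA1, and 13.8% rose and 13.9% fell with siRNA2. TGFB1 rose with siRNA1 (log2 fold change 0.59, SE 0.06, adjusted p = 2.22e-05 in edgeR's test) and had 0.16 with siRNA2 (SE 0.06, adjusted p = 0.074). SMAD7, an inhibitor of the pathway, averaged 642 ± 28.0 with siRNA1, 118 ± 8.13 with siRNA2 and 521 ± 22.1 with NC, and fell with siRNA2. Its log2 difference between the siRNAs was 2.44 (SE 0.13, adjusted p = 1.86e-08, edgeR). TGFBR3 and SKIL also fell with siRNA2, by 0.99 and 1.01 on the log2 scale. SMAD4 fell with both siRNAs, by 0.37 with siRNA1 and by 0.34 with siRNA2.

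Other proteins with thrombospondin type 1 repeats, 32 tested of 61 listed, had 6 members that rose and 0 that fell with siRNA1 in edgeR's test. Their median was 0.26, and of all genes 10.8% rose and 10.5% fell. Among the listed genes with a negative value, 3 had an unadjusted p under 0.05 in edgeR. After adjustment, DESeq2 called 1, ADAMTS13, and limma-voom 0. The count that fell was 2 under the stricter filter, and 1 with only the pair of groups fitted or without NC replicate 1, siRNA1 replicate 2 or siRNA2 replicate 3. With siRNA2, 5 rose and 7 fell, with a median of -0.39, where 13.8% of all genes rose and 13.9% fell. The count that rose with siRNA2 was 2 without siRNA2 replicate 3, and 3 without NC replicate 1 or 2, siRNA1 replicate 2 or 3, or siRNA2 replicate 1 or 2, with no filter, or with only the pair fitted. CCN1, a matricellular protein and target of YAP1, stood at 4877 ± 31.5 normalized counts with siRNA1, 1011 ± 65.9 with siRNA2 and 1110.0 ± 50.8 with NC. It rose with siRNA1 (log2 fold change 2.13, SE 0.06, adjusted p = 6.82e-10 in edgeR's test), and had -0.13 with siRNA2 (SE 0.06, adjusted p = 0.143). CCN2, its relative, rose with siRNA1 (log2 fold change 0.89, SE 0.15, adjusted p = 0.00079) and fell by 0.69 with siRNA2 (SE 0.15, adjusted p = 0.00407). ADGRB2, an adhesion receptor, and the netrin receptors UNC5A and UNC5B fell with siRNA2, by 1.24, 0.63 and 0.43 on the log2 scale. ADAMTS14, a procollagen peptidase, rose with both siRNAs, with 0.25 for siRNA1 and 0.76 for siRNA2.

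**Figure D5:**
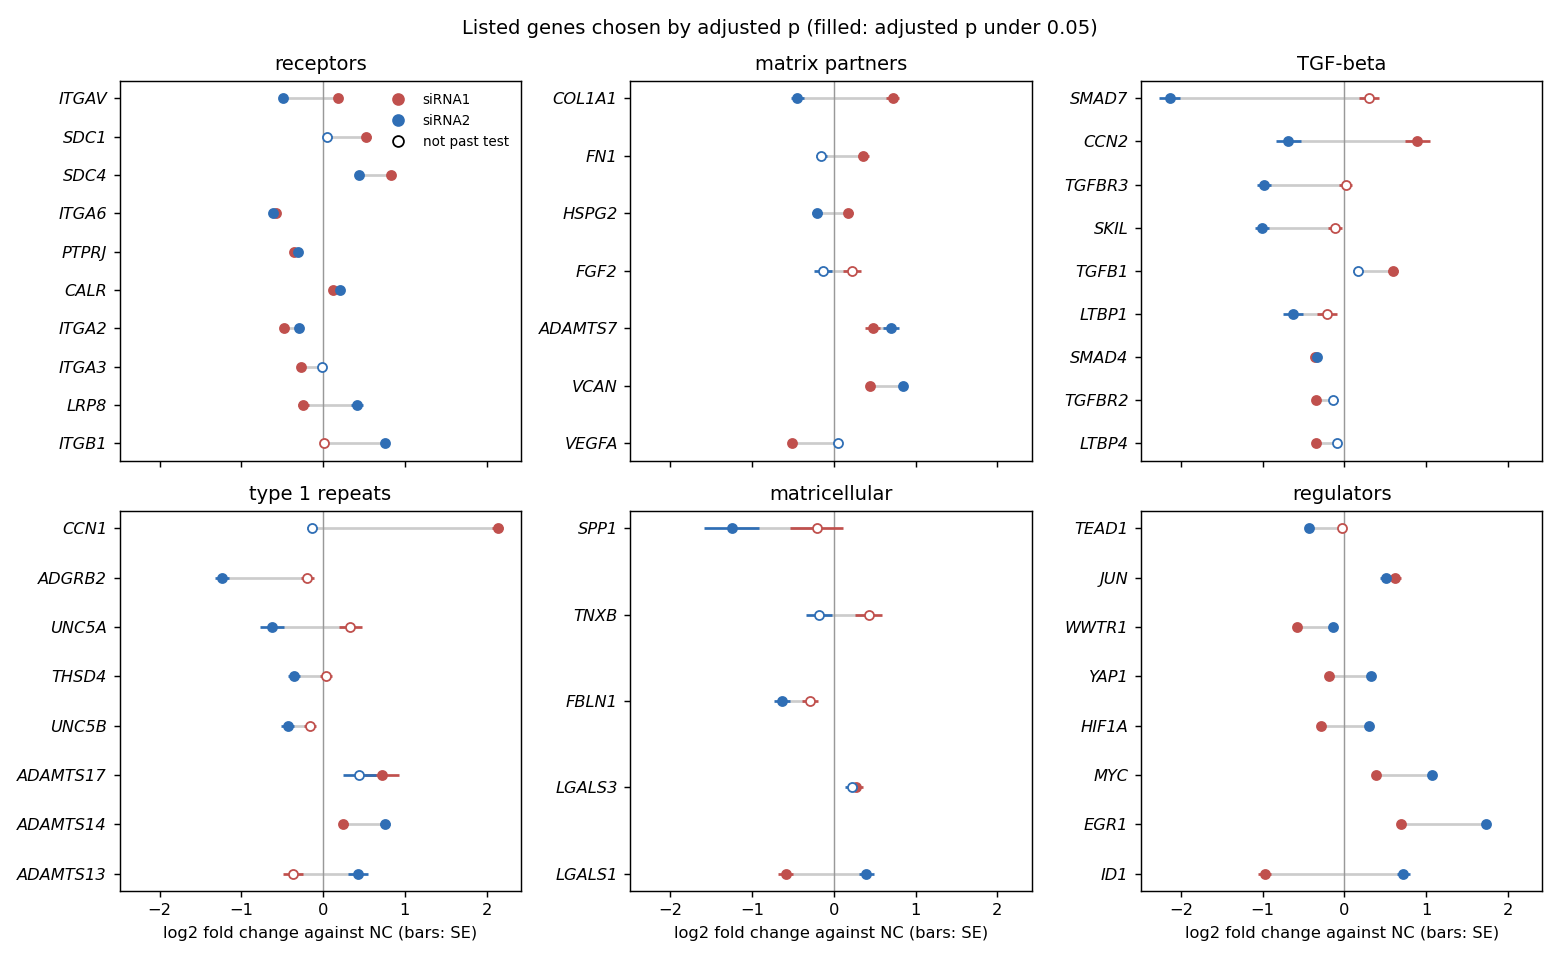
Log2 fold change against NC (x axis, bars are SE) with siRNA1 and siRNA2 for the listed genes with the smallest adjusted p, up to 6 per list and comparison, in 6 panels by list. Filled points have an adjusted p under 0.05 in edgeR's test, each gene is drawn in the first list that holds it, and 1 gene is not drawn. With both points filled, CCN2, COL1A1, HSPG2 and ITGAV have siRNA1 above 0 and siRNA2 below 0, and ID1, YAP1, HIF1A, LGALS1 and LRP8 the reverse.

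Other matricellular proteins, 14 tested of 24 listed, have CCN1 and CCN2 in common with the lists above. Of all genes tested, 10.8% rose and 10.5% fell with siRNA1, and 13.8% rose and 13.9% fell with siRNA2. In the list, 5 rose and 1 fell with siRNA1, with a median of 0.23, and 3 rose and 3 fell with siRNA2, with a median of -0.16. Without siRNA2 replicate 1 the counts that fell were 2 with siRNA1 and 5 with siRNA2, and without siRNA2 replicate 3, 2 fell with siRNA1. With siRNA1, 3 fell when only the pair of groups was fitted, and 2 with DESeq2, limma-voom or the replicate block. The member that fell with siRNA1 in the edgeR fit of all groups was LGALS1, galectin-1, and it had the direction of THBS3. It averaged 12661 ± 2246 normalized counts with siRNA1, 25084 ± 1649 with siRNA2 and 19061 ± 801 with NC (SD, n = 3 each). LGALS1 fell by 0.59 on the log2 scale with siRNA1 (SE 0.09, adjusted p = 0.000518) and rose with siRNA2 (log2 fold change 0.40, SE 0.09, adjusted p = 0.00577, both in edgeR's test). FBLN1, fibulin-1, fell by 0.63 with siRNA2 (SE 0.10, adjusted p = 0.00039). SPP1, osteopontin, fell by 1.25 with siRNA2 (SE 0.34, adjusted p = 0.014), at a mean of 35.1 ± 9.72 with siRNA2, against 83.8 ± 20.6 with NC, and this call was lost without NC replicate 2, siRNA2 replicate 2 or siRNA2 replicate 3 (adjusted p from 0.0526 to 0.0564).

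Genes known to regulate THBS1, 17 tested of 18 listed, went in both directions. With siRNA1, 4 rose and 5 fell, with a median of -0.03, and with siRNA2, 6 rose and 5 fell, with a median of 0.05. Of all genes tested, 10.8% rose and 10.5% fell with siRNA1, and 13.8% rose and 13.9% fell with siRNA2. EGR1 and JUN, immediate early transcription factors, rose with both siRNAs. EGR1, an activator of the THBS1 promoter, averaged 3762 ± 149 normalized counts with siRNA1, 7693 ± 316 with siRNA2 and 2326 ± 97.9 with NC. JUN stood at 2388 ± 81.1 with siRNA1, 2202 ± 177 with siRNA2 and 1551 ± 35.1 with NC. MYC, known to repress THBS1, rose with both, with log2 fold changes of 0.39 with siRNA1 and 1.07 with siRNA2, and by more with siRNA2 (difference between the siRNAs -0.68, SE 0.03, adjusted p = 3.8e-09 in edgeR's test). ID1, another repressor, averaged 2824 ± 413 with siRNA1, 9149 ± 290 with siRNA2 and 5564 ± 293 with NC. It fell by 0.98 with siRNA1 (SE 0.08, adjusted p = 2.42e-06) and rose with siRNA2 (log2 fold change 0.72, SE 0.08, adjusted p = 1.65e-05, both in edgeR's test). That is the reverse of THBS1 in direction, a pattern that 1.63% of all genes tested had. A link between ID1 and THBS1 in these cells was not tested.

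Hippo pathway genes of that list differed in direction. YAP1, the co-activator that works with TEAD proteins, fell by 0.19 on the log2 scale with siRNA1 (SE 0.04, adjusted p = 0.00197) and rose with siRNA2 (log2 fold change 0.33, SE 0.04, adjusted p = 1.61e-05, both in edgeR's test). WWTR1, its relative TAZ, fell with both, to 4299 ± 37.3 with siRNA1 and 5832 ± 145 with siRNA2, against 6431 ± 54.0 with NC. TEAD1, a DNA-binding partner of both, fell by 0.44 with siRNA2 (SE 0.04, adjusted p = 2.54e-06) and had -0.03 with siRNA1. TEAD4, another such partner, rose with siRNA1 (log2 fold change 0.56, SE 0.07, adjusted p = 0.000122) and had 0.19 with siRNA2 (SE 0.07, adjusted p = 0.0699). HIF1A, the hypoxia factor, fell by 0.29 with siRNA1 and rose with siRNA2 by a log2 fold change of 0.30.

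Over all 6 lists, 100 different genes other than the members were tested. Of these, 4 (4.0%) rose with siRNA1 and fell with siRNA2, namely CCN2, COL1A1, HSPG2 and ITGAV, against 1.38% of all genes tested. The reverse held for 5 (5.0%), namely HIF1A, ID1, LGALS1, LRP8 and YAP1, against 1.63% of all. The calls of HSPG2, the basement membrane proteoglycan perlecan, were close to the threshold, with an adjusted p of 0.0497 with siRNA1 and 0.0233 with siRNA2 in edgeR's test. The siRNA1 call of HSPG2 was lost in 11 of the 17 alternatives, among them leaving out any library but siRNA1 replicate 1. Its siRNA2 call was lost in 5, among them leaving out NC replicate 2 or 3 or siRNA2 replicate 1 or 2. Another 11 of the 100 rose with both siRNAs, against 4.71% of all genes tested, and 8 fell with both, against 4.01%. The comparisons with NC share the same 3 NC libraries. Each of these patterns, in the same or in opposite directions, was thus more frequent in the lists than among all genes. No share was taken from genes of similar counts. These shares are a description of the lists and carry no test.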

How the data were processed

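RNA sequencing counts were analysed for 9 HCT116 libraries, 3 each for siRNA1, siRNA2 and NC, grouped by the library labels. The authors deposited raw counts per gene as whole numbers for 35817 Ensembl genes, with no normalization, and every column was used. The genome build in the submitters' notes is hg19. Not given in the sources used here are the software for alignment and counting, the annotation and strand, and whether reads or pairs were counted, so reads of overlapping genes on opposite strands may not have been told apart. Counts without molecular identifiers carry counting error and duplicates alike, and floors cover counting error only. Each SE also takes in the spread between libraries.

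Genes were filtered by filterByExpr (minimum count 10, minimum total 15), scaled by TMM and tested with edgeR 4.0.16 (R 4.3.3) by its quasi-likelihood method. A single model held 3 groups, with 6 residual degrees of freedom, Benjamini-Hochberg adjustment over 21130 genes and a threshold of 0.05. Each SE was derived from the fold change on the log2 scale and its F value. The calls were tested on simulated data. Changes were planted there with siRNA1 alone, in genes with at least 50 expected counts, which leaves out THBS2 and THBS4. The simulated spread was estimated from these same libraries, and far fewer genes were changed than were called in the data. That test therefore cannot show a misfit of the model or of the scaling. Log2 CPM used a prior count of 2. THBS2, at 0 in siRNA2, was set against a floor of 3 counts over the group. Lengths, positions and 3′ UTRs came from GENCODE v29 (GRCh38, 34766 genes matched by ID), and promoters and miRNAs from RefSeq tables, in which all 4 members were found. Protein sequences were not used here.

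The members and the gene lists were chosen with earlier results of these data known. Named genes were the members, COMP, LINC00857 and overlapping or nearest genes. From each list, up to 6 genes per comparison were named by the smallest adjusted p among those past the threshold with a mean of at least 50 normalized counts. Likeness to THBS1 added the 8 highest and 4 lowest Pearson r and the 5 nearest pairs of fold changes, at the same mean. One gene that this rule named is not reported here, by name or in the plots, and it stayed in the counts and medians. CD47, CD36, COL2A1, MIR17HG, TEAD4 and the genes named in the other observations were named after their values had been seen. Alternatives were DESeq2 1.42.0, limma-voom (limma 3.58.1), scaling by median-of-ratios or by the upper quartile, no filter, a stricter filter that asked for 10 counts in all libraries of 1 group, a fit of only the pair of groups compared, a replicate block, and leaving out each library in turn.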

Additional observations from a re-analysis of the deposited data

Results flagged for a closer look

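THBS1 lay above every NC library in every siRNA1 library and below every NC library in every siRNA2 library. Its log2 difference, siRNA1 minus siRNA2, was 3.04, and this difference was not tested because the gene was chosen for it. How many other genes have their libraries in such an order was not counted.

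THBS3 had the reverse order in every library, and its difference between the siRNAs was tested (-1.16 on the log2 scale, adjusted p = 3.59e-05 in edgeR's test). MTX3, which starts beside THBS4, fell with both siRNAs and by less with siRNA1 (difference 0.24, adjusted p = 0.00561). SERINC5, beyond the other end of THBS4, did so as well (difference 0.41, adjusted p = 8.02e-05).

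Among the listed genes, 9 passed the test in opposite directions with the siRNAs. Over all genes tested, 1.38% were higher with siRNA1 and lower with siRNA2, and 1.63% were the reverse. The direct difference, siRNA1 minus siRNA2, combines both changes of a gene in the same fit, so its adjusted p adds no separate support. The log2 difference was 1.58 for CCN2, 1.17 for COL1A1, 0.67 for ITGAV and 0.38 for HSPG2, all higher with siRNA1. It was -1.70 for ID1, -0.99 for LGALS1, -0.65 for LRP8, -0.59 for HIF1A and -0.52 for YAP1, all lower with siRNA1. The largest adjusted p among these 9 differences in edgeR's test was 0.000304, for HSPG2.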

How the results depend on the processing

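THBS1 kept its direction in all 3 comparisons under all 17 alternatives, and its log2 fold change moved by less than the spread between libraries. With 1 library left out it ran from 1.59 to 1.62 with siRNA1, from -1.46 to -1.38 with siRNA2 and from 2.98 to 3.06 between the siRNAs. THBS3 kept its calls with siRNA1 (-0.77 to -0.62) and between the siRNAs (-1.28 to -1.09) with each library left out. With siRNA2 it ran from 0.40 to 0.59, and the call was lost without NC replicate 1, siRNA2 replicate 1 or siRNA2 replicate 2. The fitted THBS2 value with siRNA1 against NC ran from -6.44, a value that is no bound because siRNA1 was at 0 without its replicate 3, to 0.32. Its sign turned without NC replicate 1 or siRNA1 replicate 1 or 2, at an adjusted p of at least 0.216 in all 9 fits. The stricter filter removed THBS2, so it gave no value there. THBS4 passed in no alternative, with an adjusted p of at least 0.102. Counts of genes called stayed within 1.5 times the main counts throughout, from 1611 to 2025 higher with siRNA1 against NC when 1 library was left out.

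Same-numbered libraries of different groups did not deviate together, with a correlation of deviations between -0.0912 and 0.0626. That does not tell whether same-numbered libraries were prepared together, which is not stated. With a replicate block, THBS3 had -0.67 with siRNA1, 0.48 with siRNA2 and -1.16 between the siRNAs, and the block changed no call of a member. It gave 2237 genes higher and 2244 lower with siRNA1 against NC. Of 149 calls of LINC00857, MTX1, MTX3, SERINC5 and the listed genes, 117 held under all alternatives that gave an adjusted p, 32 were lost under at least 1, and none turned its direction. The cause of the lost calls was not tested. The libraries of THBS2 and THBS4 held 0 to 71 counts, and the precision of their values is low.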

Other observations

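A few listed genes were near the limit of detection in NC and had more counts with both siRNAs. TGFBI, a matrix protein induced by TGF-beta, had 55, 23 and 26 counts with siRNA1, 69, 21 and 19 with siRNA2, and 0, 4 and 0 with NC, and it rose with both siRNAs (adjusted p = 0.00715 with siRNA1 and 0.00439 with siRNA2 in edgeR's test). THSD7A, a membrane protein with type 1 repeats, had 60, 55 and 76 counts with siRNA1, 50, 12 and 54 with siRNA2, and 10, 4 and 18 with NC, and it rose with both (adjusted p = 0.0101 with siRNA1 and 0.0374 with siRNA2 in edgeR's test). The siRNA2 call of THSD7A was lost in 9 of the 17 alternatives, among them leaving out NC replicate 1 or 2, siRNA1 replicate 2 or 3, or siRNA2 replicate 1 or 3. ITGB6, the beta chain of an integrin that activates latent TGF-beta, had 39, 10 and 12 counts with siRNA1, 3, 12 and 13 with siRNA2, and 0, 3 and 0 with NC. Its adjusted p in edgeR's test was 0.0464 with siRNA1 and 0.108 with siRNA2, and the siRNA1 call was lost in 11 of the 16 alternatives that gave one, among them leaving out any library but NC replicate 2. These genes were picked for their low NC counts after the values had been seen.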
